A study of Mus musculus with 2 samples.

Results

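Germ cell genes were read in RNA-seq libraries of teratomas, 1 from E14 cells and 1 from E14-Sox2TA/WT cells. A total of 9 genes, Dppa3, Dazl, Ddx4, Nanos3, Prdm1, Tfap2c, Mael, Sycp3 and Tex19.1, were chosen by name as germ cell genes, and all 9 have a row among the 45777 genes of the mm10 expression table. E14 is a male mouse embryonic stem cell (ESC) line. The E14 library is WT for Sox2, and the E14-Sox2TA/WT cells are a clone of E14 expanded from a single cell, in which T258 of Sox2 was changed to alanine on 1 allele with CRISPR/Cas9. Cells of both genotypes were grown subcutaneously in BALB/c-nu mice, 3 mice per genotype, and teratomas were taken at 14 days. Whether a library came from 1 tumour or several is not stated. Such nude mice lack T cells and keep other host cells, so the libraries can hold host blood and stroma. The paper states that edited clones were grown out and normally kept with an added mix of inhibitors, and were used after its removal. For E14 it describes culture in serum and leukemia inhibitory factor, without naming this mix. The part of this culture difference in the values below was not tested. With 1 library per genotype, no difference has a replicate check and no p-value was computed. A tumour, a clone, its culture history and a genotype cannot be told apart.

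The libraries held 50529171 reads on genes for E14 and 49030281 for E14-Sox2TA/WT. Sox2, the edited gene, stood at 246 and 130 in TPM, a level per transcript length that sums to the same total in each library (E14 first here and wherever a pair of values is given). The table does not separate its alleles. The sample labels give teratoma as the tissue, although their extraction text names a stem cell line. Squamous Krt5 was present in both libraries, at a TPM of 25.1 and 127. The Y-linked genes Eif2s3y, Ddx3y, Uty and Kdm5d held 5453 reads together in E14 and 0 in E14-Sox2TA/WT, which allows up to 3 reads for each gene, so the second library stands apart from the male line it is labelled as. Of all Y-linked genes listed, 32 had reads in E14 and 5 in E14-Sox2TA/WT. Whether the clone lost its Y chromosome or the library has another origin cannot be told apart here, and neither was tested. This bears on every value given for E14-Sox2TA/WT. Mitochondrial genes took 5.17% and 9.70% of the TPM. When 1 was added to each TPM, the log2 ratio had a median of -0.18 over the 11578 genes that reached a TPM of 10 in either library, the shift against which the values below can be read.

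Primordial germ cells, the founders of eggs and sperm, arise from the epiblast of the mouse embryo under BMP signals. Prdm1, Prdm14 and Tfap2c are the transcription factors that install their program, Nanos3 and Dppa3 act soon after, and Dazl, Ddx4, Mael and Sycp3 follow around the time the cells reach the gonad and prepare for meiosis. Many germ cell genes have promoters rich in CpG dinucleotides that are methylated in somatic cells, and in ESCs the E2f6 and Mga repressors also hold some of them low. Several, such as Dppa3 and Tex19.1, are transcribed in mouse ESCs as well, so they mark both germ cells and undifferentiated cells. Teratomas of ESCs contain a mixture of tissues from all germ layers and may keep undifferentiated cells.

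The upstream sequences are shown because members that were higher together can be compared there with Nanos3, which was not higher. RefSeq promoter windows on GRCm38.p6, the build that mm10 stands for, were matched for 7 of the 9 genes. Dppa3 and Tfap2c had no entry. Each stretch below ends at or just before the transcript start, was cut back where GENCODE annotates an exon, and runs 5′ to 3′ on the strand of the gene. Capitals mark 3 motifs searched on both strands. They are CACGTG, an E-box of the kind that Mga with Max binds, GCGGGA, the core of E2F sites, and CATTGT, the core of Sox sites, and none of the matches overlapped. On the opposite strand the last 2 read TCCCGC and ACAATG. The Sycp3 stretch is chr10:88459337-88459568 on the plus strand. The Mael stretch is chr1:166238748-166238994 on the minus strand. The Tex19.1 stretch is chr11:121145893-121146142 on the plus strand. The Dazl stretch is chr17:50293637-50293870 on the minus strand. The Nanos3 stretch is chr8:84176553-84176802 on the minus strand.
Sycp3: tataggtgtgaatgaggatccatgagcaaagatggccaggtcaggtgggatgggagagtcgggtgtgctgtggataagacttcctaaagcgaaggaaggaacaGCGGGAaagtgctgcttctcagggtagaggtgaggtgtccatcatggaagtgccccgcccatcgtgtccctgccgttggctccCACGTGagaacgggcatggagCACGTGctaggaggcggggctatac
Mael: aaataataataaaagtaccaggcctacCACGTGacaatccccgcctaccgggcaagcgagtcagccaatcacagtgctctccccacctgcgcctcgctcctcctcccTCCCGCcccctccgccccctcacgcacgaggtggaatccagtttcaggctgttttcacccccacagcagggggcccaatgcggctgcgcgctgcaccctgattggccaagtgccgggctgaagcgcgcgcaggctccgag
Tex19.1: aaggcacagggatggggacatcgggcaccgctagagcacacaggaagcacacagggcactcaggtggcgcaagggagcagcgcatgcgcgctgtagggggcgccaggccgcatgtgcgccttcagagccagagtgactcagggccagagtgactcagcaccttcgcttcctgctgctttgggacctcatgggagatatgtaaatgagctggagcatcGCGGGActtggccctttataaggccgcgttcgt
Dazl: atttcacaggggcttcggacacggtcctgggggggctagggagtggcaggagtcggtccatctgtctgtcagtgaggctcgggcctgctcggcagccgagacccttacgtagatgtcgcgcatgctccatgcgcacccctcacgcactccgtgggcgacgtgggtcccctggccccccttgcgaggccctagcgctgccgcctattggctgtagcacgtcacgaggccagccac
Nanos3: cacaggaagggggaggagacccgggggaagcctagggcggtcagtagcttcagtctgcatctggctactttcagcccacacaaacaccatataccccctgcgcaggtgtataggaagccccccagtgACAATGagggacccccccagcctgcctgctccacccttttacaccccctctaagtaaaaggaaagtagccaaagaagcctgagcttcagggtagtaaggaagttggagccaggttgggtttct

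Each window stands before a transcript start of RefSeq, which need not be the 5′ end of the gene. For Ddx4 (chr13:112652311-112652560) and Prdm1 (chr10:44458749-44458998), both on the minus strand, the window lies wholly inside the gene span given below, before an internal start, so these windows are not upstream of the gene as those of the other 5 are, and neither is shown. Sycp3 held 2 E-boxes and 1 E2F core, and Mael held 1 of each. The internal window of Ddx4, of which 165 of 250 bases lie in annotated exons, also held 1 of each. Tex19.1 held 1 E2F core. Dazl, among the genes with the highest ratios, held none of the 3 motifs, nor did the internal window of Prdm1. Nanos3 held the only Sox core. Over all 32851 windows, cut to the same 250 bases, an E-box was found in 6.02%, an E2F core in 16.9% and a Sox core in 10.7%. By CpG content the genes also differed. Dazl had 20 CpG dinucleotides, Mael 18, Tex19.1 15, Sycp3 12 and Nanos3 3, against a median of 6 over all windows. The internal windows of Ddx4 and Prdm1 had 31 and 15. These matches are letters in a window and say nothing about binding or methylation, which were not measured in these samples.

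**Figure D1:**
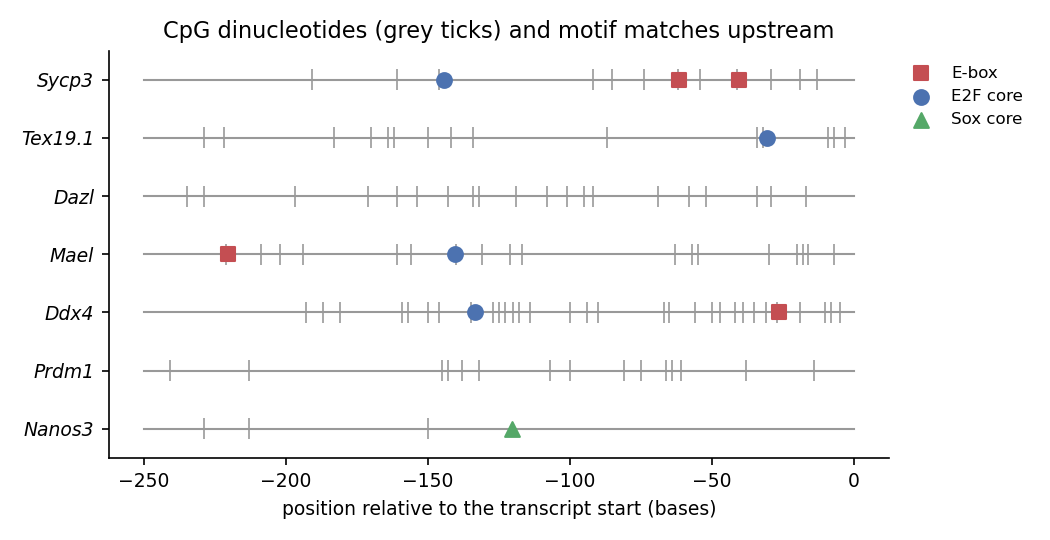
Positions of CpG dinucleotides (grey ticks) and of E-box, E2F core and Sox core matches in the 250 bases before a RefSeq transcript start of 7 germ cell genes, with the distance from that start in bases on the horizontal axis. For Ddx4 and Prdm1 the start is internal and the window lies inside the gene. Genes are ordered from the highest TPM ratio at the top to the lowest, and Nanos3, at the bottom, has the fewest CpG dinucleotides, 3, and the only Sox core.

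Most of the germ cell genes had higher levels in the E14-Sox2TA/WT teratoma. Of the 9 genes, 7 had a TPM more than 2-fold higher, from 4.62-fold for Ddx4 to 76.1-fold for Sycp3, while Prdm1 was 1.19-fold higher and Nanos3 was 1.77-fold lower. In the E14 library only Nanos3 reached a TPM of 10, and the median of the 9 genes was 2.48. In the E14-Sox2TA/WT library 5 genes reached 10, and the median was 19.7. Together the 9 genes had a TPM of 28.8 and 203, a ratio of 7.05. In a bulk sample, more cells of a type and more RNA per cell cannot be told apart.

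The DEG rule of the study, a fold change above 2 where either library reached a TPM of 10, called 5 of the 9 genes higher (Dazl, Tex19.1, Dppa3, Sycp3 and Tfap2c) and 0 lower. Over all 11578 genes tested, 10.8% were called higher and 18.7% lower. These shares also stand beside the calls in every list below, where only genes reaching a TPM of 10 could be called. Of the 9 genes, 6 passed the TPM filter. The 5 called genes passed it only through the E14-Sox2TA/WT library and Nanos3 only through the E14 library, so the filter itself favoured a difference. Ddx4 and Mael were more than 2-fold higher, but stayed under a TPM of 10 in both libraries. A second rule does not use TPM and asks that the whole 95% Clopper-Pearson interval of the read ratio, scaled by library totals, lie beyond 2-fold. It called 7 genes higher and 0 lower, where 16.8% and 8.55% of the 29148 genes with a read were called. These intervals cover counting error only, reads without molecular identifiers are not independent molecules, and they compare these libraries, not the genotypes.

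**Figure D2:**
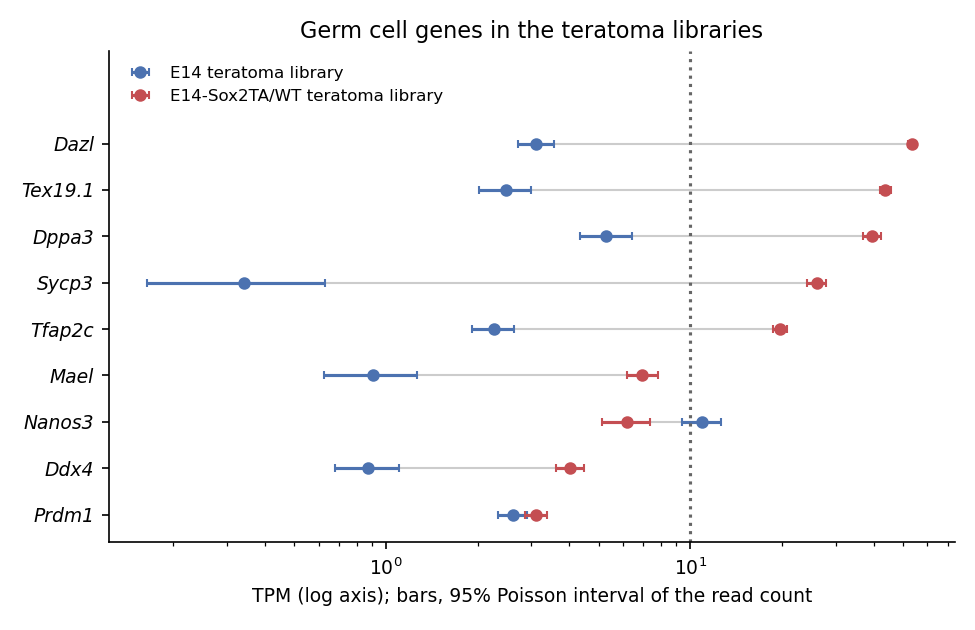
TPM of the 9 germ cell genes on a log axis in the E14 (blue) and E14-Sox2TA/WT (red) teratoma libraries, 1 library each, with 95% Poisson intervals of the read count as bars and a dotted line at a TPM of 10. In 8 genes the red point lies to the right, with 5 of them past the line, and in Nanos3 it lies to the left.

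The order of the genes differed between the libraries. In the E14 library Nanos3 stood first at a TPM of 10.9 and Dppa3 second at 5.30, both separate from the next gene beyond their counting intervals. Dazl, Prdm1, Tex19.1 and Tfap2c followed between 3.12 and 2.26, each overlapping its neighbour. Mael and Ddx4 overlapped at 0.905 and 0.872, and Sycp3 was last at 0.342. In the E14-Sox2TA/WT library Dazl stood first at 53.6. Tex19.1 at 43.8 and Dppa3 at 39.6 overlapped, and Sycp3 at 26.0 and Tfap2c at 19.7 were separate from their neighbours. Mael at 6.95 and Nanos3 at 6.17 overlapped, and Ddx4 at 4.03 and Prdm1 at 3.12 closed the order. Sycp3 thus moved from place 9 to place 4 and Nanos3 from place 1 to place 7.

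**Figure D3:**
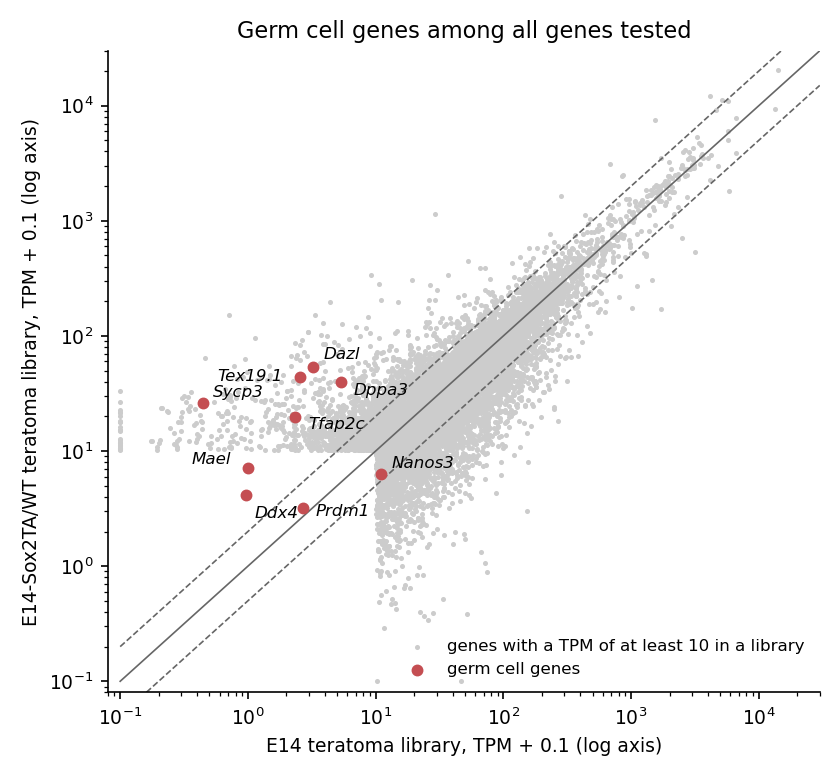
TPM in the E14 library against TPM in the E14-Sox2TA/WT library, with 0.1 added and both axes on a log scale, for the 11578 genes reaching a TPM of 10 in either library (grey) and the 9 germ cell genes (red). The solid line marks equal TPM and the dashed lines 2-fold. Of the 9 genes, 7 lie above the upper dashed line, Ddx4 and Mael below the TPM filter, and Prdm1 and Nanos3 lie between the dashed lines.

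Among the specification factors, Prdm1 and Tfap2c went apart. Prdm1, a zinc finger repressor also known as Blimp1, lies on chromosome 10 from 44437174 to 44528558 on the minus strand, with up to 8 exons in GENCODE. It had 330 reads (TPM 2.61) in E14 and 545 reads (TPM 3.12) in E14-Sox2TA/WT. Its TPM was 1.19-fold higher, and its reads scaled by library totals were 1.70-fold higher (1.48 to 1.96). These ratios differed by more than counting error. The reads per unit of FPKM, which follow the transcript length used, were 1.24 times as high in the E14-Sox2TA/WT library, whereas in the other 8 genes this factor lay between 0.927 and 1.01. Prdm1 passed neither rule.

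Tfap2c, the AP-2 gamma factor, lies on chromosome 2 from 172545678 to 172558622 on the plus strand. It had 155 reads (TPM 2.26) in E14 and 1433 reads (TPM 19.7) in E14-Sox2TA/WT. The TPM was 8.73-fold higher and the scaled reads 9.53-fold higher (8.07 to 11.3), which placed it at rank 272 of the 11578 genes by log2 ratio. In a list of 13 family relatives of the 9 genes, only 3 reached a TPM of 10, and 0 were called in either direction. The rule on read intervals called 4 of the 13 higher and 0 lower, against 16.8% and 8.55% of all genes with a read. The median log2 ratio of the list was 0.22. The highest were Ddx3x, a helicase of most cells, at a TPM of 147 and 246, Dazap1 at 98.4 and 97.3 and Prdm2 at 27.6 and 17.9. Tfap2a had a TPM of 2.04 and 2.53, and Tfap2b had 2.82 and 5.10. Prdm14, the partner of Prdm1 and Tfap2c in this program, had 0 reads in E14 and 342 in E14-Sox2TA/WT. This is at least 117-fold higher with 3 reads set for the count of 0, a bound that leaves out the counting error of the 342 reads. Its TPM of 4.91 kept it under the filter. Whether germ cells or undifferentiated cells gave these reads was not tested.

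Tfap2c and Prdm1 are also made in epithelia, and such tissues differed as well. In a list of 10 squamous epithelium genes, 4 reached a TPM of 10 and were called higher, and 0 were called lower. The summed TPM was 77.2 and 350. In this list Krt6a had a TPM of 10.5 and 96.5, Krt14 of 8.09 and 58.9 and Trp63 of 6.96 and 6.43. The cornified envelope genes went opposite ways, as Ivl had 0 and 53 reads, while Lor had 225 and 63 reads and a TPM of 5.23 and 1.31. Of 8 trophoblast genes only 1 reached a TPM of 10 and was called higher. No trophoblast gene did so in the E14 library, so no lower call was possible. The summed TPM was 4.52 and 37.0, and 5 of the 8, Gcm1, Hand1, Prl3d1, Prl2c2 and Tpbpa, had 0 reads in the E14 library. Prl2c2 has near-identical copies, so its count is uncertain. Plac1, a placental gene, had a TPM of 0.340 and 15.6. Of 8 intestinal epithelium genes 2 reached a TPM of 10 and were called higher. No gene of this list reached 10 in E14, so here too no lower call was possible. The 8 had a summed TPM of 8.33 and 237, of which Reg3g, an antimicrobial lectin, made up 4.25 and 198. Lgals4, a lectin, had 1.33 and 17.6, Krt20, a keratin of gut, had 1.44 and 6.94, and Cdx1, Cdx2 and Fabp2 had 0 reads in the E14 library. The part of these tissues in the values of Tfap2c and Prdm1 was not tested. Of plasma cells, which also use Prdm1, Jchain had 24 and 19 reads, and Xbp1, which secretory cells of many kinds express, had a TPM of 60.1 and 102.

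Nanos3 and Dppa3, which act soon after specification, also went apart. Nanos3, an RNA-binding repressor that keeps primordial germ cells alive, lies on chromosome 8 from 84173733 to 84176552 on the minus strand. It had 189 reads (TPM 10.9) in E14, the highest level of the 9 genes there, and 120 reads (TPM 6.17) in E14-Sox2TA/WT. The TPM was 1.77-fold lower and the scaled reads 1.53-fold lower (1.21 to 1.94), so the interval excluded equal levels but not a change under 2-fold, and neither rule called it. The 634 genes of chromosome 8 that reached a TPM of 10 lay at a median of -0.49 on the log2 scale against all such genes, and the part of this shift in the value of Nanos3 was not tested. Nanos2, a relative that marks male germ cells, had 8 and 4 reads, too few to compare, and Nanos1, which is expressed in the nervous system, had a TPM of 7.96 and 3.93.

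Dppa3, also known as Stella, protects the maternal genome of the zygote from loss of methylation. It lies on chromosome 6 from 122626424 to 122630271 on the plus strand. It had 105 reads (TPM 5.30) in E14 and 871 reads (TPM 39.6) in E14-Sox2TA/WT. The TPM was 7.47-fold higher and the scaled reads 8.55-fold higher (6.98 to 10.6). The protein-coding genes on either side are Gdf3 and Nanog, which ESCs also express. Gdf3 had a TPM of 1.72 and 15.9, 9.24-fold higher, and Nanog had 8.37 and 115.9, 13.8-fold higher. Of the stretches of 50 nt in the GENCODE transcripts of Dppa3, 16.5% also occur in transcripts of 3 other genes, chiefly Dppa3-ps, a processed copy that had 0 reads in both libraries.

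The RNA-binding proteins Dazl and Ddx4 differed in level more than in direction. Dazl, which controls translation of germ cell messages, lies on chromosome 17 from 50279393 to 50293620 on the minus strand. It had 222 reads (TPM 3.12) in E14 and 4224 reads (TPM 53.6) in E14-Sox2TA/WT, the most reads and the highest level of the 9 genes there. The TPM was 17.2-fold higher and the scaled reads 19.6-fold higher (17.1 to 22.5), at rank 105 of 11578. The protein-coding genes on either side, Rftn1 and Plcl2, were instead 0.512 and 0.439 times as high in TPM. Boll, a relative used in meiosis, stayed low, at 11 and 105 reads and a TPM of 0.0651 and 0.676.

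Ddx4, the mouse Vasa RNA helicase of germ granules and a standard marker of germ cells that have reached the gonad, lies on chromosome 13 from 112598333 to 112652633 on the minus strand, with up to 22 exons. It had 69 reads (TPM 0.872) in E14 and 337 reads (TPM 4.03) in E14-Sox2TA/WT. The TPM was 4.62-fold higher and the scaled reads 5.03-fold higher (3.87 to 6.62). Ddx4 thus had the smallest ratio of the 7 higher genes. The median of chromosome 13 on the log2 scale lay 0.24 above that of all genes, and its part in the value of Ddx4 was not tested.

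Mael and Tex19.1 restrain transposable elements in germ cells, and both were higher. Mael, a partner of the piRNA pathway, lies on chromosome 1 from 166201385 to 166238744 on the minus strand. It had 34 reads (TPM 0.905) in E14 and 289 reads (TPM 6.95) in E14-Sox2TA/WT. The TPM was 7.68-fold higher and the scaled reads 8.76-fold higher (6.13 to 12.9).

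Tex19.1, a mammal-specific protein of germ cells, placenta and ESCs, lies on chromosome 11 from 121146143 to 121148314 on the plus strand. It had 104 reads (TPM 2.48) in E14 and 2047 reads (TPM 43.8) in E14-Sox2TA/WT. The TPM was 17.7-fold higher and the scaled reads 20.3-fold higher (16.7 to 24.9), at rank 113 of 11578. Its neighbour and paralog Tex19.2 lies 27466 bases before it and had 10 and 192 reads, a TPM of 0.189 and 3.49, with a similar ratio of 18.5 at a much lower level. Uts2r, on the other side, had 30 and 24 reads and was 0.706 times as high in TPM. Only 2.67% of the 50-nt stretches of Tex19.1 also occur in Tex19.2.

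Sycp3, a protein of the axes of meiotic chromosomes, had the largest ratio of the 9 genes. It lies on chromosome 10 from 88459587 to 88473236 on the plus strand, and the 2 E-boxes of the sequence above begin at positions -64 and -43 from its transcript start. It had 10 reads (TPM 0.342) in E14 and 786 reads (TPM 26.0) in E14-Sox2TA/WT. The TPM was 76.1-fold higher and the scaled reads 81.0-fold higher, with a wide interval of 43.8 to 170 since it rests on 10 reads, and its rank was 45 of 11578. Chpt1, a phospholipid enzyme gene on the opposite strand, overlaps Sycp3, and 43.0% of the 50-nt stretches of Sycp3 lie in Chpt1 transcripts. The sources used here do not say if reads were assigned by strand, and reads of the shared stretches could belong to either gene. Chpt1 had 784 and 1697 reads and was 2.13-fold higher in TPM.

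Relative to Pou5f1 (Oct4), which primordial germ cells share with ESCs, the genes also separated. Its own TPM was 19.0 in E14 and 304 in E14-Sox2TA/WT. Dazl stood at 16.4% and 17.6% of the Pou5f1 level and Tex19.1 at 13.02% and 14.4%. Sycp3 went from 1.80% to 8.56%. Dppa3, by contrast, went from 27.9% to 13.01%, Tfap2c from 11.9% to 6.48%, Mael from 4.76% to 2.29% and Ddx4 from 4.58% to 1.32%. Nanos3 went from 57.3% to 2.03% and Prdm1 from 13.7% to 1.02%.

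Further germ cell genes were read in 7 lists assembled by hand, with 96 genes besides the 9. Of these, 34 reached a TPM of 10 in at least 1 library, with 23 called higher and 6 lower. Over all 11578 genes that did so, 10.8% were called higher and 18.7% lower. A TPM of 1 in at least 1 library was reached by 66 of the 96. The 96 genes had a median log2 ratio of 0.57, or 0.79 with genes at 0 reads in 1 library set at their bound. It was 1.20 with 0.1 in place of 1 added to each TPM and 1.34 over the 66 genes alone, so its size depends on how low genes are treated. The value of 0.57 stands against 2.67 for the 9 genes and 0.03 for all 29148 genes with a read. These sets are not alike, since 8 of the 96 genes had 0 reads in both libraries. Over all 18558 genes reaching a TPM of 1 the median was -0.06, beside 1.34 for the 66. In the order of the lists below, 11, 4, 1, 7, 7, 2 and 3 genes reached a TPM of 10. In the E14 library alone 6, 0, 0, 1, 3, 1 and 2 did, and only these could be called lower. Some genes, such as Hormad1, stand in more than 1 list, and the lists did not all move alike.

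Genes of primordial germ cell specification and maintenance had a median log2 ratio of 2.47, with 9 of 14 called higher and 0 lower. Dppa2 and Dppa4, chromatin proteins of ESCs and early germ cells, had TPMs of 1.39 and 45.5, and of 2.06 and 54.6. Ifitm1 and Ifitm3, membrane proteins of early germ cells that interferon also induces, had 66.0 and 387, and 159 and 583. Utf1, a chromatin factor of undifferentiated cells, had 6.11 and 94.5. Several of these genes are shared with ESCs. Among 13 germline genes known for promoter methylation in somatic cells, 3 were called higher, with a median of 1.92. No lower call was possible there, since no gene of the list reached a TPM of 10 in E14. Rpl10l, a retrogene of testis, had a TPM of 2.47 and 82.5, Hormad1, a meiotic axis protein, 0.182 and 17.7, and Taf7l, a germ cell subunit of the transcription machinery, 2.87 and 13.7.

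Of 4 genes of meiotic entry, 1 was called higher, with a median of 0.23, and again no lower call was possible. Stra8, which retinoic acid induces at meiotic entry, had a TPM of 2.26 and 64.4, 28.5-fold higher. Gm4969 (Meiosin), the partner of Stra8, went the other way, with 158 and 35 reads and a TPM of 2.65 and 0.473. Ythdc2, an RNA helicase of meiotic entry that other tissues also make, had 6.80 and 4.93. Among 22 genes of the synaptonemal complex, cohesin and recombination, 5 were called higher and 0 lower, with a median of 1.03, or 1.36 with genes at 0 reads set at their bound. Hormad2 had a TPM of 0.637 and 10.6, Syce1 of 5.59 and 24.4 and Rec8, the meiotic cohesin, of 7.37 and 18.5. Syce2 had the highest level in the E14 library, at 47.2, with 42.1 in the other. Tex12, Rad21l, Spo11 and Mei1 had 0 reads in E14 and 25, 7, 12 and 12 in E14-Sox2TA/WT, so Spo11, the enzyme that starts meiotic recombination, was near the limit of detection.

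The piRNA pathway and germ granule list divided, with 4 of 18 called higher and 3 lower and a median of 0.90. Rnf17, a germ granule protein, had a TPM of 0.163 and 11.3, and Tdrd12 had 0.869 and 19.3. Tdrkh had 36.7 and 12.6, Ddx25 had 32.7 and 10.9, and Tdrd7, which the lens also uses, had 23.4 and 9.65. Oocyte genes had a median of 0.10, with 1 of 16 called higher and 1 lower. Sohlh2, a transcription factor of early oocytes and spermatogonia, had a TPM of 3.74 and 129.9, the highest level in the list, and Lhx8, which forebrain neurons also use, had 23.5 and 0.739. Zp3, of the egg coat, had 6 and 142 reads, and Zp2 and Oosp1 had 0 in both libraries. In the list of 13 genes of spermatogonia and spermatids 1 was called higher and 2 lower. Id4 and Gfra1, which are also neural, had a TPM of 66.8 and 18.3, and of 21.3 and 10.03, and Crem, a CREB relative, had 4.78 and 10.7. Tnp1, Tnp2, Prm1, Prm2, Acrv1 and Pgk2, which mark late sperm development, had 0 reads in both libraries, which allows up to 3 reads in each.

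**Figure D4:**
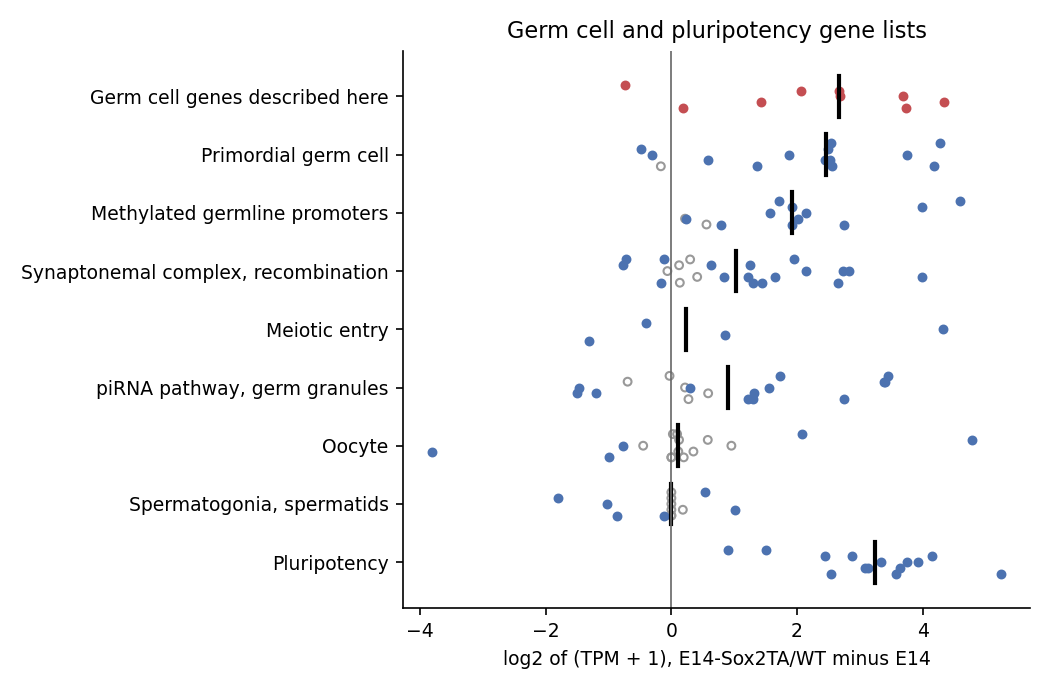
Difference in log2(TPM + 1), E14-Sox2TA/WT minus E14, for each gene (points) of the 9 germ cell genes (red), 7 further germ cell lists and a pluripotency list (blue), with the median of each list as a black bar and open circles for genes under a TPM of 1 in both libraries. Medians range from 2.67 for the 9 genes and 2.47 for the primordial germ cell list to 0.10 for oocyte genes and 0 for spermatogonia and spermatids, and the pluripotency list stands at 3.24. Over genes reaching a TPM of 1 alone, the oocyte median was -0.78 (5 genes) and that of spermatogonia and spermatids -0.49 (6 genes).

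Genes of some other cell types were higher as well. Of 14 pluripotency genes, 13 were called higher and 0 lower, at a median of 3.24 on the log2 scale, and their summed TPM was 117 and 2109, with reads for all 14 in both libraries. Utf1, Lin28a and Sall4 stand in both this list and the primordial germ cell list, so the 2 lists are not separate. Dppa5a, an RNA-binding protein of ESCs, had a TPM of 29.1 and 1144, and Zfp42 (Rex1) had 3.88 and 85.2. The part of undifferentiated cells in the values of Dppa3, Dazl, Tex19.1 and Tfap2c, which ESCs can also transcribe, was not tested. Visceral endoderm and liver genes were higher too, with 4 of 7 reaching a TPM of 10 and called, and a summed TPM of 5.44 and 278. Afp, a serum protein of the yolk sac and fetal liver, had 0.614 and 151, Apoa1 had 2.45 and 61.1, Ttr had 1.32 and 41.1, and Apoa2 had 0 reads in the E14 library. Genes of gonadal support cells were mixed, with 2 of 8 reaching a TPM of 10 and called higher, and a summed TPM of 4.22 and 35.9. In this list and the visceral endoderm list no gene reached a TPM of 10 in E14, so no lower call was possible. Gata4 and Dmrt1, which endoderm and germ cells also express, had a TPM of 0.511 and 13.5, and of 0.585 and 18.2. Wt1, of gonad and kidney, had 0.137 and 1.42. Nr5a1, a defining factor of gonadal somatic cells, had 34 and 4 reads, Foxl2 17 and 26, and Insl3 10 and 5.

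The repressors that hold germline genes low in ESCs were present in both libraries. All 14 reached a TPM of 10, with 3 called higher, 0 lower and a median log2 ratio of 0.11. E2f6 had a TPM of 49.3 and 39.8, Mga of 20.7 and 16.2, and Dnmt1, the maintenance methyltransferase, of 72.7 and 56.5. Ring1 had 28.0 and 21.9, Rnf2 69.9 and 65.6, Setdb1 64.5 and 41.3 and Dnmt3a 43.5 and 42.4. Others were higher, with Max at 65.5 and 78.0, L3mbtl2 at 24.0 and 35.8, and Pcgf6, also called, at 17.2 and 36.8. Dnmt3l and Dnmt3b, which set new methylation in germ cells and early embryos, were called higher at 2.25 and 86.7, and at 13.6 and 66.1. Trim28 and Uhrf1 had the highest levels, at 213 and 351, and at 74.8 and 119.

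The ratios of the 9 genes depended little on the scaling. TPM gave lower ratios than FPKM for every gene, by a common factor of 0.871. Sycp3, for example, was at 76.1 on TPM, 87.3 on FPKM, 81.0 on reads scaled by library totals and 74.1 with TMM factors. Nanos3 was lower on all 5 scalings, from 1.53-fold on reads scaled by library totals to 1.77-fold on TPM. Prdm1 was higher on all 5, from 1.19-fold on TPM to 1.70-fold on reads scaled by library totals.

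**Figure D5:**
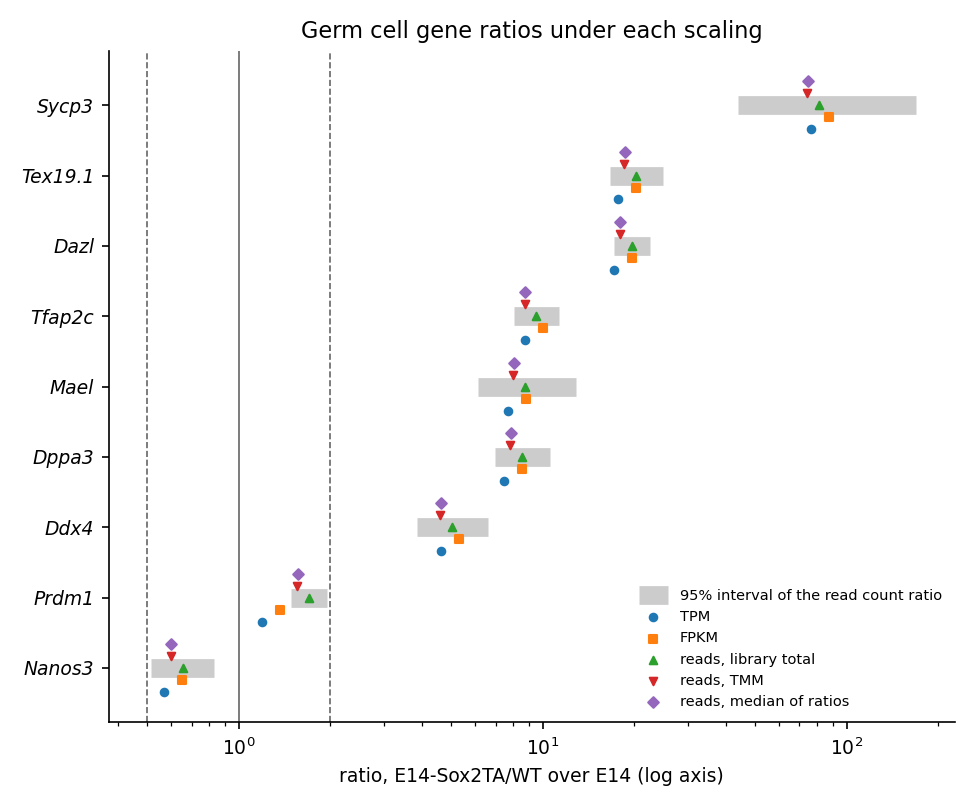
Ratio of each germ cell gene, E14-Sox2TA/WT over E14, on a log axis under 5 scalings (symbols), with the 95% Clopper-Pearson interval of the read ratio scaled by library totals as a grey band, a solid line at equal levels and dashed lines at 2-fold. The symbols of 7 genes lie past 2-fold on every scaling, Nanos3 lies left of the solid line, and the TPM of Prdm1, at 1.19, lies outside its band of 1.48 to 1.96.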

How the data were processed

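RNA-seq of polyA RNA was performed by the authors for 1 teratoma sample per genotype. For each gene of mm10 the authors deposited raw read counts, FPKM (counts per length and library size) and TPM (FPKM rescaled to a fixed sum), with NCBI gene identifiers. The submitters' processing notes name bcl2fastq 2.20.0, Trimmomatic, HISAT2 2.1.0 and StringTie 2.1.3b. The counting settings, strand included, are not given in the sources used here. Positions came from RefSeq on GRCm38.p6, in which 45679 of 45777 identifiers were found.

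TPM was compared as the ratio of E14-Sox2TA/WT to E14, and genes were called at a fold change above 2 where either library reached a TPM of 10. With 1 library per group no test was run. Read ratios have 95% Clopper-Pearson intervals, and a count of 0 was set at 3 reads. Intervals were checked on simulated Poisson counts of genes with many reads. That check covers neither genes with few reads, such as Sycp3 in E14, nor spread between tumours. The members and lists were chosen with earlier results of these data known, and the motifs, neighbouring genes and shared stretches with the values in view. Genes on either side are given for Dppa3, Dazl and Tex19.1 only. In each further list but that of plasma and B cells, the genes named were the 3 highest in TPM in either library and the 2 that differed most in log2 ratio among genes reaching a TPM of 1. Others were named after their values were seen, for a role stated beside them, for 0 reads or, in the repressor list, to give every gene. RefSeq promoter windows were searched in the 250 bases before the transcript start, and transcripts of GENCODE M21 were compared by stretches of 50 nt. The summary of the plasma and B cell list is not reported here. Alternatives covered the scaling, pseudocount, fold and TPM filter. R 4.3.3 with edgeR 4.0.16 gave TMM factors, and scipy 1.17.1, pandas 2.3.3, numpy 2.4.6 and matplotlib 3.10.9 ran under Python 3.11.15.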

Additional observations from a re-analysis of the deposited data

How the results depend on the processing

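No paired analysis was possible because each genotype has 1 library, and no replicate could be left out. Among 49 alternative values of the main counts and medians, 6 counts moved by more than 1.5 times and 0 medians changed sign. With a fold change above 1.5, 1 of the 9 germ cell genes (Nanos3) was called lower, where 0 was called at 2. For the 96 further germ cell genes, with 23 higher and 6 lower, a TPM filter of at least 1 gave 43 and 12, no filter gave 56 and 15, both since more genes enter, and a fold change above 3 gave 2 lower. Their median log2 ratio of 0.57 became 1.20 with 0.1 added to each TPM and 0.37 on FPKM, both by more than 1.5 times. The median log2 ratio was 2.69 for the 7 germ cell genes other than Prdm1 and Tfap2c, a choice made after seeing the data. Of 45 alternative values for single genes, 9 moved beyond counting error, 6 of them by adding 0.1 in place of 1 to each TPM and 3 of them Prdm1 on scaled reads. Depth limits Sycp3, with 10 reads in the E14 library, and Mael, with 34.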
